A study of Mus musculus with 6 samples.

Results

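The transcripts described here encode the enzymes that cut, protect, cross-link and hydroxylate the extracellular matrix. The members are all genes whose symbols fit a fixed pattern, with no cut on their values: matrix metalloproteinases (Mmp genes), the secreted ADAMTS proteases, the metalloproteinase inhibitors Timp1 to Timp4, lysyl oxidases (Lox and its relatives), the collagen prolyl hydroxylase chains P4ha1 to P4ha3, the lysyl hydroxylases Plod1 to Plod3, and Serpinh1, the collagen chaperone also called HSP47. The rule found 58 of 49568 genes: 23 matrix metalloproteinases, 19 ADAMTS proteases, 4 TIMPs, 5 lysyl oxidases and 7 collagen hydroxylases and Serpinh1. RNA was sequenced from the mouse mast cell line MC/9 in 3 control libraries, labelled as receiving no treatment, and 3 libraries labelled rPTH, whose cells had 10 nM rPTH in the medium over 24 h. Per the series' design text, the mast cells had been placed on a layer of the mouse osteoblast line 7F2 and were collected from that co-culture for sequencing. The text does not say whether control mast cells were also kept with osteoblasts, nor how the mast cells were separated from them. rPTH is not spelled out in the labels and was read as a parathyroid hormone preparation. The labels name 1 mast cell line and 1 osteoblast line, and nothing says that replicates came from separate cultures, so a p-value here speaks of sample-to-sample spread alone, and that spread may be technical.

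Collagen is hydroxylated on proline and lysine inside the endoplasmic reticulum, where Serpinh1 binds the folded triple helix, and is cross-linked outside the cell after lysyl oxidases have oxidised its lysines. Matrix metalloproteinases and ADAMTS proteases are zinc enzymes that cut collagens, proteoglycans and other matrix proteins, and TIMPs block them by binding the catalytic site. Osteoblasts and fibroblasts are the usual makers of these enzymes in bone. In osteoblasts, parathyroid hormone is known to induce the collagenase gene Mmp13 and the protease gene Adamts1. Mast cells are better known for granule proteases than for matrix assembly.

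Total counts per library ran from 22282095 to 33577977, and the 3 deepest libraries were those with rPTH. Levels are CPM (counts scaled by library size to a common total) on library sizes adjusted by edgeR's TMM factors, given as mean ± SD over 3 libraries. A count of 0 allows up to 3 counts, which is 0.0841 to 0.152 CPM, counting error only. Markers of both cell lines were present. Mast cell markers summed to 8419 to 10153 CPM in controls and 6802 to 8742 CPM with rPTH. Mcpt4, with 0 to 4 counts, was the 1 of 15 markers too low to test. Of the 14 tested, 5 had a log2 fold change (rPTH minus control) above 0 and 9 below, with a median of -0.23. All rPTH libraries lay below all controls for 4 of them (Tpsb2, Tpsab1, Gata2 and Itgb7), against 8.46% of all tested genes, and above for 0. In Tpsb2, control 3 (630 CPM) and rPTH 2 (628 CPM) nearly met. Control 3 and rPTH 3 nearly met in Gata2 (1036 and 1034 CPM) and in Itgb7 (both 223 CPM). Osteoblast and stromal markers, none of them a member, had sums of 2792 CPM (control 1), 2485 (control 2), 2450 (control 3), 4886 (rPTH 1), 3134 (rPTH 2) and 3211 (rPTH 3). Library rPTH 1 thus had the highest stromal sum and the lowest mast cell sum. Among the rPTH libraries, 25 of 26 tested stromal markers were highest in rPTH 1, against 41.4% of all tested genes. Among the defining osteoblast markers Alpl, Runx2, Phex and Sp7 were measurable, while Ibsp (0 to 1 count), Dmp1 (0 to 2), Bglap (1 to 5) and Bglap2 (2 to 5) were at or near 0. Of 33 stromal markers 26 were tested, and 24 of these had a log2 fold change above 0, against 41.5% of all tested genes. All rPTH libraries lay above all controls for 14 of them, against 8.35% of all tested genes. Their median log2 fold change was 0.55, against -0.09 for all tested genes. Markers of other cell types were low in comparison: macrophage markers summed to 9.86 to 21.4 CPM in controls and 12.8 to 16.0 with rPTH, endothelial markers to 184 to 203 and 148 to 195, and adipocyte markers to 12.2 to 35.0 and 14.6 to 22.6. The endothelial sum was nearly all Pecam1 (183 to 201 CPM in controls), while the other endothelial markers had 1 to 44 counts. The adipocyte sum was nearly all Fabp4 (275 to 700 counts), while the other adipocyte markers had 0 to 10 counts. Most of the macrophage sum was Cd14 (170 to 391 counts), while the other macrophage markers had 0 to 60 counts. Control 1 also stood apart, with a TMM factor of 0.81 against 1.03 to 1.06 in the other 5 libraries.

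Promoter sequence is shown for 4 members. They are the only 2 tested members found to hold an AP-1 motif, and 2 whose groups did not overlap. Each is the 250 bases before the transcription start in RefSeq on GRCm38.p6, 5′ to 3′ on the gene's strand, with motif matches in capitals. Of the 58 members 39 had an entry in the promoter table, 22 of them tested. Among members whose groups did not overlap, Lox, Loxl2, Mmp19, Adamts5, Mmp16 and Plod2 had no entry, so their motifs are unknown. Timp3 and Adamts9 had an entry with GC boxes only and are not shown. The windows therefore give no contrast between members with an AP-1 motif and members without overlap. The windows are chr9:7272264-7272513 (Mmp13, plus strand), chr9:7445572-7445821 (Mmp3, plus strand), chr19:42612807-42613056 (Loxl4, minus strand) and chr7:100285270-100285519 (P4ha3, plus strand).
Mmp13: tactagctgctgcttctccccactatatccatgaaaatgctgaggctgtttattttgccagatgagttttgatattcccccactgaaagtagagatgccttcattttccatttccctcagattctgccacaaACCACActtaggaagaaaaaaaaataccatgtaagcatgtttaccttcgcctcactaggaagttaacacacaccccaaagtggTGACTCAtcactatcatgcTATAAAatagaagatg
Mmp3: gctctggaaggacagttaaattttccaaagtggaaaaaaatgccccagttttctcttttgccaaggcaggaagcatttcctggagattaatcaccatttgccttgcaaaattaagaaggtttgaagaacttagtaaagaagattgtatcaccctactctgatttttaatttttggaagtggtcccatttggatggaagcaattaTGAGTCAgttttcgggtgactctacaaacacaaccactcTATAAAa
Loxl4: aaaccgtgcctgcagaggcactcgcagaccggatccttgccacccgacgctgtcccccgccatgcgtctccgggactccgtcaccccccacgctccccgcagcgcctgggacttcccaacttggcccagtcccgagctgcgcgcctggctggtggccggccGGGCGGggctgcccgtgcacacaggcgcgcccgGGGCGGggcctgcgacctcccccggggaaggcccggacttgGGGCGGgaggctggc
P4ha3: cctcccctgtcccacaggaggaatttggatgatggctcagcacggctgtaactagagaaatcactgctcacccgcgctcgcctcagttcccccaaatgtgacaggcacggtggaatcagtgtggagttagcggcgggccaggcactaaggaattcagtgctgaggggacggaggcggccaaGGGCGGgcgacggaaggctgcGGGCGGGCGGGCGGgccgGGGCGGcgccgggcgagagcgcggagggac

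Motifs were searched on both strands: an AP-1 site with the letters TGANTCA and the cAMP response element CRE with the letters TGACGTCA. A RUNX core was searched as TGTGGT, the TATA box was searched as TATAAA, and the GC box was searched as GGGCGG. Among all 32851 promoter windows of the same length, 6.75% held the AP-1 letters, 1.55% the CRE, 14.0% the RUNX core, 12.4% the TATA box and 32.7% the GC box. In Mmp13 the AP-1 match lay at -35 to -29, a RUNX match on the other strand at -118 to -113 and the TATA box at -16 to -11, counted from -1 as the base before the start. In Mmp3 the AP-1 match lay at -46 to -40 and the TATA box at -7 to -2. Loxl4 and P4ha3 held GC boxes only, and their windows were richer in G and C (76% and 67.2%) than those of Mmp13 (40.4%) and Mmp3 (37.6%). Some GC boxes of P4ha3 overlap each other. GC boxes were found in 17 of the 22 tested members with an entry, and CRE letters in 0 of them. A match describes letters in this window and is not evidence of binding.

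Across the members the first comparison was rPTH against control. Of the 58 members 36 had enough counts to test, and 0 of the 36 passed an adjusted p of 0.05 in edgeR (quasi-likelihood test, Benjamini-Hochberg over 16696 genes), as did 0.0% of all tested genes; the members' adjusted p ran from 0.619 to 0.978. The log2 fold change (rPTH minus control) was above 0 for 30 of the 36 members, against 41.5% of all tested genes and 48.5% of tested protein-coding genes. The median was 0.40 for the members, -0.09 for all tested genes and -0.01 for tested protein-coding genes. An unadjusted p under 0.05 in edgeR was reached by 5 members on the higher side (Lox, Timp3, Loxl2, Mmp19 and Adamts5). The shares on that side were 1.98% of all tested genes and 2.64% of tested protein-coding genes. On the lower side 0 tested members reached it, against 5.89% of all tested genes. The 22 members not tested, with 1 to 50 counts in all, enter none of these counts. Apart from Adamts13, Mmp10, Mmp24 and Mmp25, they had a lower mean CPM with rPTH than in controls. All 3 rPTH libraries lay below all 3 controls for 0 tested members, against 8.46% of all tested genes. They lay above all 3 controls for 10 tested members, against 8.35% of all tested genes and 10.7% of tested protein-coding genes. Those 10 were Lox, Timp3, Loxl2, Mmp19, Adamts5, P4ha3, Adamts9, Loxl4, Mmp16 and Plod2. By family, the log2 fold change was above 0 for 7 of 10 tested metalloproteinases (median 0.40), 9 of 11 ADAMTS proteases (0.40), 2 of 3 TIMPs (0.42), 5 of 5 lysyl oxidases (0.51) and 7 of 7 collagen hydroxylases and Serpinh1 (0.09). With plain library totals Timp1, Adamts10 and Adamts20 also lay above 0. Stromal marker transcripts moved with these members, and their part in the result was not tested. In bulk RNA a change in the number of stromal cells and a change in RNA per cell cannot be told apart.

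**Figure D1:**
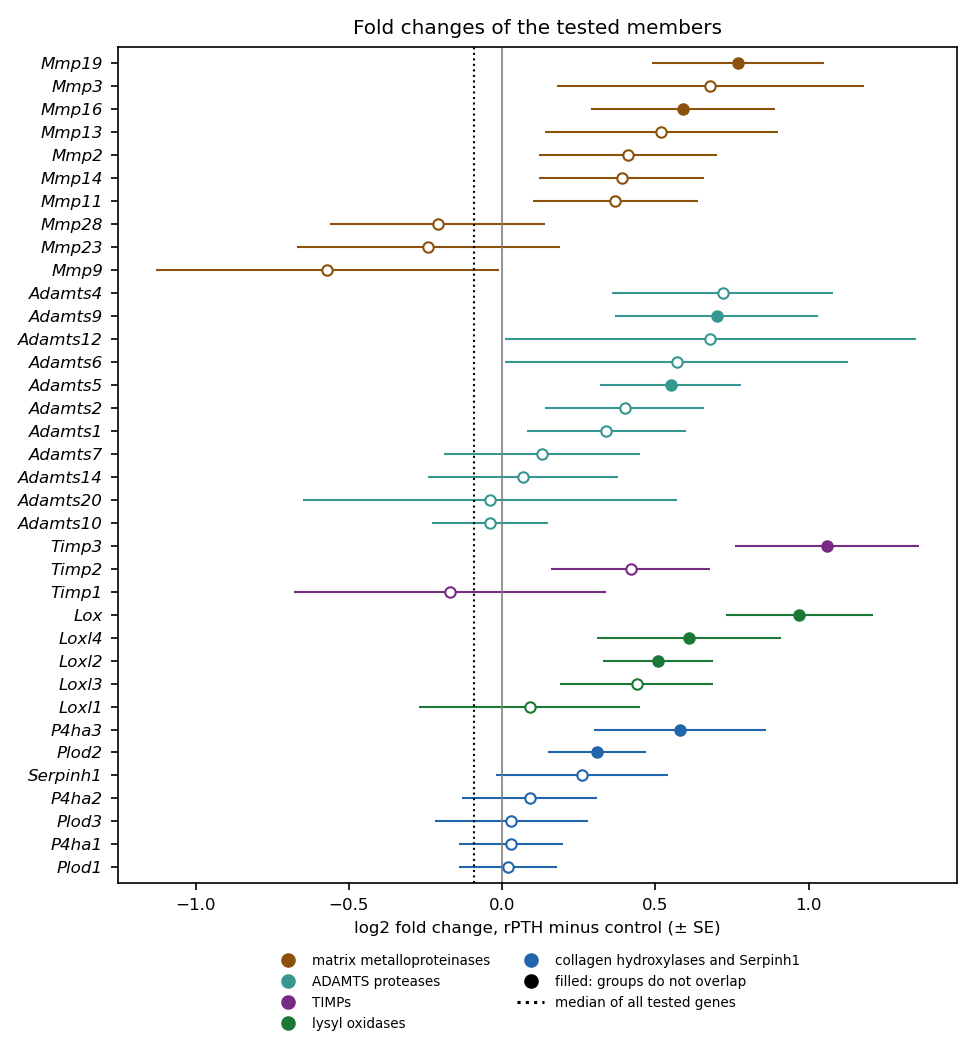
Log2 fold changes (rPTH minus control, horizontal axis, bars ± SE) of the 36 tested members, coloured by family. Filled points are the 10 members whose rPTH libraries all lay above the controls, and 30 of the 36 points lie above 0, while the dotted line marks the median of all tested genes at -0.09.

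Lysyl oxidases had the highest median of the families, 0.51 over 5 tested members, all above 0. Lox, which oxidises lysines of collagen and elastin for cross-linking, had 40.0, 53.6 and 51.7 CPM in control 1, 2 and 3 and 125, 77.2 and 81.4 CPM in rPTH 1, 2 and 3. The groups did not overlap, and rPTH 1 stood above the other rPTH libraries. The means were 48.4 ± 7.37 and 94.6 ± 26.6 CPM (SD, n = 3 each), and the log2 fold change was 0.97 ± 0.24 (SE; edgeR adjusted p = 0.619). Without rPTH 1 it was 0.71, and without control 1 it was 0.83.

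Loxl2, on chromosome 14 from 69609068 to 69695834 (GENCODE M21, GRCm38), a relative that acts on collagen IV among other substrates, had 11.2, 14.7 and 13.8 CPM in controls and 20.8, 17.7 and 18.2 CPM with rPTH. Its groups did not overlap and its spread was narrow, with a log2 fold change of 0.51 ± 0.18 (SE). Loxl4 had 4.97, 8.25 and 7.18 CPM in controls and 13.8, 8.64 and 8.75 CPM with rPTH. Here control 2 came close to rPTH 2 and 3, and the log2 fold change of 0.61 ± 0.30 was 0.35 without rPTH 1.

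Loxl3 had 24.0, 17.5 and 14.8 CPM in controls and 32.0, 23.1 and 21.5 CPM with rPTH, so that control 1 lay within the rPTH range. Loxl1, which is needed for elastic fibre upkeep, had 58.4, 33.5 and 24.6 CPM in controls and 54.9, 32.8 and 36.0 CPM with rPTH. Its highest value was in control 1 and its log2 fold change was 0.09 ± 0.36. The summed level of the 5 genes was 139, 128 and 112 CPM in controls and 247, 159 and 166 CPM with rPTH. The rPTH sums were above the controls under TMM, RLE and plain library-total scaling, and the ratio of means was 1.51, or 1.29 without rPTH 1.

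Among the inhibitors Timp3, which stays bound to the matrix and also blocks ADAMTS proteases, had 5.88, 9.68 and 10.3 CPM in controls and 24.0, 15.6 and 14.2 CPM with rPTH. The groups did not overlap, with the lowest value in control 1 and the highest in rPTH 1. The means were 8.60 ± 2.38 and 17.9 ± 5.26 CPM (SD, n = 3 each), the largest fold of any tested member (log2 1.06 ± 0.30, SE; edgeR adjusted p = 0.619), and 0.79 without rPTH 1. Timp3 lies on chromosome 10 from 86300372 to 86349506 (GENCODE M21, GRCm38) and shares 1733 of its 8144 exon bases with Syn3 on the other strand, which had only 3 to 13 counts.

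Timp2, which also helps MMP14 activate pro-MMP2, had 97.1, 60.1 and 57.1 CPM in controls and 118, 84.6 and 83.7 CPM with rPTH. Control 1 lay above rPTH 2 and 3, and the log2 fold change was 0.42 ± 0.26, with 0.69 when control 1 and 0.24 when rPTH 1 was left out. Timp1, the soluble inhibitor on chromosome X from 20870166 to 20874735, had 416, 121 and 123 CPM in controls and 245, 184 and 158 CPM with rPTH. Control 1 was the highest of all 6 libraries, while controls 2 and 3 were lower than every rPTH library.

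The log2 fold change of Timp1 was -0.17 ± 0.51 (SE) with TMM scaling, 0.05 with plain library totals and 0.67 without control 1. With trends on length and GC content removed per library it was 0.42, so its direction depended on that library and on the scaling. Timp1 was 91.0% of the family's level per exon length, and the summed TIMP level followed it: 519, 191 and 191 CPM in controls and 387, 284 and 256 CPM with rPTH. Timp4 had 0 to 2 counts per library and was not tested.

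The metalloproteinases classed as collagenases were scarce. Mmp13, the main collagenase of mouse bone, had 18, 25 and 23 counts in controls and 56, 53 and 29 with rPTH, which is 0.912, 0.968 and 0.995 CPM and 1.78, 1.54 and 0.813 CPM. Its groups overlapped, since rPTH 3 was the lowest of all 6 libraries; the log2 fold change was 0.52 ± 0.38 (SE), with 0.29 when rPTH 1 was left out and 0.79 when rPTH 3 was left out. The collagenases Mmp1a, Mmp1b and Mmp8 had 0 to 2 counts and were not tested.

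Mmp2, a gelatinase made by stromal cells, had 35.6, 23.9 and 21.8 CPM in controls and 48.6, 31.5 and 27.9 CPM with rPTH. Control 1 lay inside the rPTH range, the log2 fold change was 0.41 ± 0.29, and without rPTH 1 it was 0.13. Mmp9, the gelatinase of leukocytes and osteoclasts, was read from 6 to 17 counts and averaged 0.525 ± 0.262 CPM in the control group and 0.351 ± 0.165 in the rPTH group (SD, n = 3 per group). These groups overlapped.

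Of the membrane-type enzymes, Mmp14, which cuts collagen at the cell surface and activates pro-MMP2, had 44.8, 30.6 and 26.6 CPM in controls and 57.8, 38.8 and 37.4 CPM with rPTH. Its pattern over libraries was like that of Mmp2: control 1 lay above rPTH 2 and 3, and the log2 fold change of 0.39 ± 0.27 was 0.16 without rPTH 1. Mmp16, a second transmembrane enzyme, had 2.33, 2.09 and 1.82 CPM in controls and 3.94, 2.41 and 3.03 CPM with rPTH. The groups did not overlap, though control 1 and rPTH 2 nearly met. The log2 fold change of Mmp16 was 0.59 ± 0.30 (SE), and 0.24 with trends on length and GC content removed. Mmp15, Mmp17, Mmp24 and Mmp25 had 0 to 12 counts per library and were not tested.

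Mmp19, a secreted metalloproteinase of basement membrane components, had 2.53, 3.25 and 2.47 CPM in controls and 5.65, 3.68 and 4.80 CPM with rPTH. The groups did not overlap and the log2 fold change was 0.77 ± 0.28 (SE), or 0.62 without rPTH 1. Mmp19 shares 789 of its 3533 exon bases with Tmem198b on the other strand. Tmem198b averaged 13.0 ± 2.02 CPM in the control group and 13.3 ± 0.844 in the rPTH group (SD, n = 3 per group). Because the sources used here do not give the strand setting of the counting, reads of the 2 genes cannot be told apart in that stretch.

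The stromelysin Mmp3 had 0.608, 0.310 and 0.433 CPM in controls and 0.825, 0.957 and 0.365 CPM with rPTH, from 8 to 33 counts, and Mmp11, a stromelysin-related enzyme of stromal cells, had 3.59 ± 0.783 and 4.64 ± 0.691 CPM (SD, n = 3 each). Mmp23 had 4.56 ± 2.70 CPM in controls, with 7.60 CPM in control 1, and 3.84 ± 0.469 CPM with rPTH. Mmp28 had 1.17 ± 0.313 and 1.02 ± 0.178 CPM. The groups of these 4 genes overlapped. Mmp7, Mmp10, Mmp12, Mmp20, Mmp21 and Mmp27 had 0 to 5 counts per library and were not tested.

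The summed metalloproteinase level was 101, 70.8 and 63.1 CPM in controls and 131, 88.4 and 84.1 CPM with rPTH, with control 1 above rPTH 2 and 3. Under plain library totals it was 81.8, 73.1 and 65.4 CPM in controls and 134, 92.5 and 89.3 CPM with rPTH, and the groups did not overlap. Mmp2 and Mmp14 made up 42.6% and 30.0% of the family's level per exon length. Per exon length, the TIMP sum was 19.6, 8.80 and 9.95 times the metalloproteinase sum in controls and 9.77, 10.6 and 9.88 times with rPTH. Without Timp1 these ratios were 1.02, 0.958 and 1.02 in controls and 1.05, 1.08 and 1.14 with rPTH. With Timp1 the groups overlapped, and the highest ratio was that of control 1. Without it the rPTH libraries lay above the controls by a small margin.

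**Figure D2:**
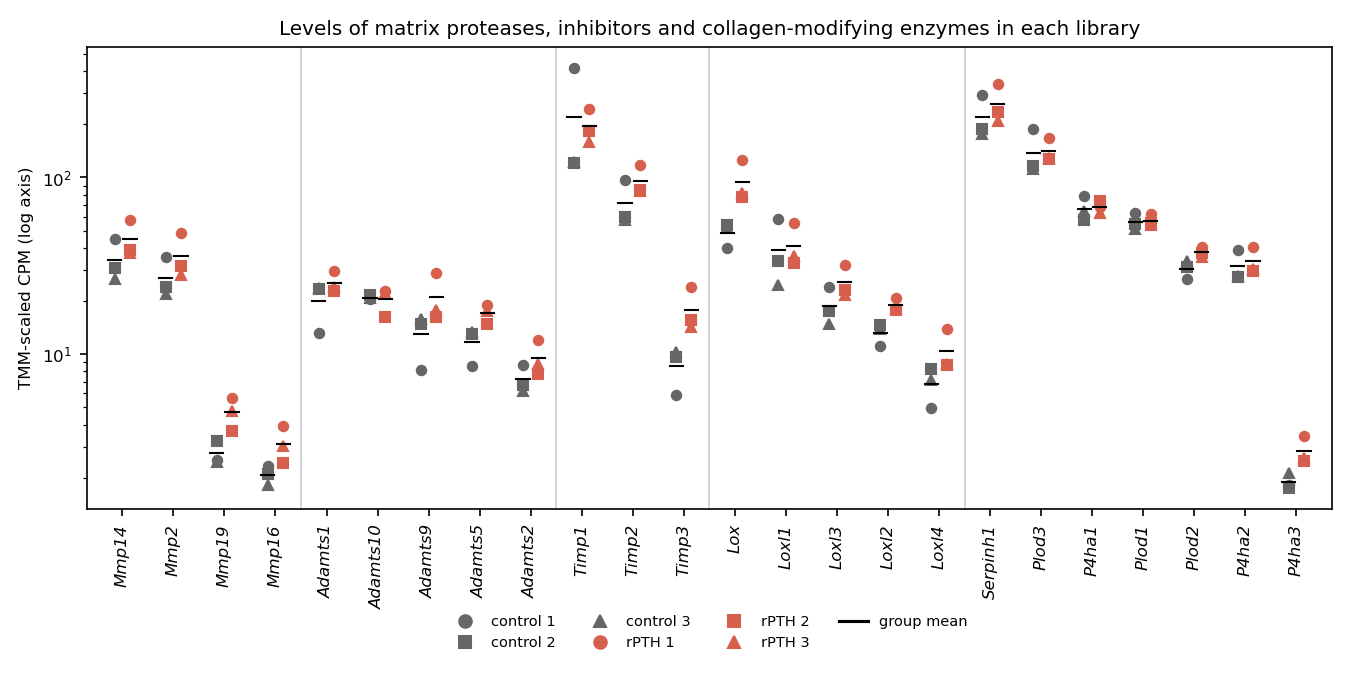
Level of 24 members in each library, in TMM-scaled CPM on a log axis, with controls in grey, rPTH in red, 1 marker shape per replicate number and group means as bars. Red circles (rPTH 1) lie at the top of their group for most members, while the grey circle (control 1) lies at 416 CPM for Timp1 and at 5.88 CPM for Timp3.

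The ADAMTS proteases that cut aggrecan and versican were measurable at low to moderate level. Adamts5, an aggrecanase on chromosome 16 from 85856173 to 85901828 (GENCODE M21, GRCm38), had 8.61, 13.0 and 13.3 CPM in controls and 18.9, 14.8 and 17.6 CPM with rPTH. The groups did not overlap and the log2 fold change was 0.55 ± 0.23 (SE). It was 0.36 without control 1 and 0.25 with trends on length and GC content removed. Adamts9, a proteoglycan-cutting relative, had 8.16, 14.9 and 15.8 CPM in controls and 28.9, 16.3 and 17.8 CPM with rPTH. The groups did not overlap, but control 3 and rPTH 2 nearly met, and the log2 fold change of 0.70 ± 0.33 was 0.40 without rPTH 1 and 0.44 without control 1.

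Adamts1, the versican-cutting protease named above as a target of the hormone in bone cells, had 13.1, 23.3 and 23.7 CPM in controls and 29.4, 22.8 and 23.9 CPM with rPTH. Apart from control 1 and rPTH 1 its 4 other libraries lay between 22.8 and 23.9 CPM. The log2 fold change was 0.34 ± 0.26 (SE), 0.10 without control 1, 0.54 without control 3, 0.22 without rPTH 1 and -0.01 with those 2 libraries left out, a setting chosen after seeing the data. Adamts4, an aggrecanase, averaged 1.74 ± 0.652 CPM in the control group and 2.87 ± 0.582 in the rPTH group (SD, n = 3 per group); control 3 and rPTH 3 had nearly the same level.

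Adamts2, which removes the N-terminal propeptide of procollagen, had 8.72, 6.66 and 6.23 CPM in controls and 12.0, 7.68 and 8.81 CPM with rPTH. Adamts14, a second procollagen N-propeptidase, had 1.85 ± 0.225 and 1.95 ± 0.514 CPM (SD, n = 3 each), and Adamts3, the third, had 1 to 4 counts. Adamts10, a protease associated with fibrillin microfibrils, had 20.4, 21.7 and 20.7 CPM in controls and 22.9, 16.2 and 22.1 CPM with rPTH. Its log2 fold change of -0.04 ± 0.19 (SE) had the opposite sign with RLE scaling (0.02) and plain library totals (0.08).

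Adamts6 had 2.85 ± 1.81 CPM in controls, with 0.760 CPM in control 1 against 3.95 and 3.85 CPM in control 2 and 3, and averaged 4.27 ± 0.691 CPM in the rPTH group (SD, n = 3 per group). Adamts7, which cuts cartilage oligomeric matrix protein, had 2.25 ± 0.495 and 2.46 ± 0.625 CPM. Adamts12 and Adamts20 lay under 1 CPM in every library. The summed ADAMTS level was 67.0, 90.9 and 92.2 CPM in controls and 128, 88.9 and 103 CPM with rPTH, with rPTH 2 below control 2 and 3. Adamts13, the von Willebrand factor protease, had 2 to 13 counts, and Adamts8, Adamts15, Adamts16, Adamts17, Adamts18 and Adamts19 had 0 to 11; none of these was tested.

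Of the 7 genes of collagen modification inside the cell, Plod2 and P4ha3 had groups that did not overlap, and those of the other 5 overlapped. Serpinh1 had 293, 187 and 176 CPM in controls and 339, 236 and 209 CPM with rPTH. Control 1 was higher than rPTH 2 and 3, and the log2 fold change of 0.26 ± 0.28 (SE) was 0.51 without control 1, 0.15 without control 2, 0.03 without rPTH 1 and 0.40 without rPTH 3. Plod3, a lysyl hydroxylase that also acts as a glucosyltransferase, had 187, 116 and 111 CPM in controls and 167, 128 and 129 CPM with rPTH. It shares 529 of its 4519 exon bases with Znhit1 on the other strand, which had 36.6 ± 23.7 and 25.4 ± 1.39 CPM.

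Plod2, the lysyl hydroxylase of collagen telopeptides, was the lysyl hydroxylase whose groups did not overlap, with 26.5, 31.0 and 33.7 CPM in controls and 40.4, 37.6 and 35.4 CPM with rPTH. Its log2 fold change was 0.31 ± 0.16 (SE), and without single libraries it ran from 0.21 (control 1) to 0.48 (control 3). With trends on length and GC content removed it was 0.15. Plod1, which hydroxylates lysines of the triple helix, had 62.8, 54.8 and 51.0 CPM in controls and 61.8, 55.6 and 53.6 CPM with rPTH, values that nearly coincided. The difference between Plod2 and Plod1 was not tested.

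Among the prolyl hydroxylase chains P4ha1, the main catalytic chain in most cells, had 78.2, 57.4 and 64.6 CPM in controls and 68.0, 73.2 and 63.2 CPM with rPTH, and P4ha2 had 39.0, 27.4 and 27.8 CPM in controls and 40.5, 29.6 and 30.3 CPM with rPTH. Both overlapped. P4ha3, the least abundant chain, had 1.82, 1.74 and 2.12 CPM in controls and 3.46, 2.49 and 2.58 CPM with rPTH, without overlap (log2 fold change 0.58 ± 0.28, SE). The family's summed level was 689, 476 and 466 CPM in controls and 720, 563 and 523 CPM with rPTH. Its ratio of means was 1.11, and 0.998 without rPTH 1.

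Levels were compared between genes only per kilobase of exon. On that scale Timp1 was the most abundant member in controls (248 ± 191 CPM per kb), followed by Serpinh1 (89.6 ± 26.5), Plod3 (30.6 ± 9.44), Timp2 (18.3 ± 5.72) and P4ha1 (16.2 ± 2.57; SD, n = 3 each). The mean ± SD ranges of Timp1 and Serpinh1 overlapped, although Timp1 was higher per kb than Serpinh1 in every library. Those of Timp2 and P4ha1 overlapped too. Lox stood at 10.1 ± 1.54 CPM per kb in controls and 19.8 ± 5.56 with rPTH, next to Loxl1 at 11.8 ± 5.31 and 12.5 ± 3.62. Timp3 was far lower, at 1.06 ± 0.292 and 2.20 ± 0.646 CPM per kb. Lox per unit of the collagen chain Col1a1, both per length, was 0.326, 0.463 and 0.514 in controls and 0.577, 0.663 and 0.578 with rPTH, so that it lay higher in every rPTH library. The same ratio for Serpinh1 was 4.67, 3.17 and 3.41 in controls and 3.05, 3.97 and 2.90 with rPTH, and it overlapped. Both ratios hold for Col1a1 alone, which had a log2 fold change of 0.49 with overlapping groups. Other stromal markers had larger log2 fold changes, such as Fn1 (0.83), Col6a3 (0.84) and Cdh11 (0.81), or smaller ones, such as Alpl (0.39). Whether Lox rose beyond the stromal markers was not tested.

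The members varied by library in a shared way. Of the 36 tested members 25 had their highest level of all 6 libraries in rPTH 1, against 20.2% of all tested genes and 25.0% of tested protein-coding genes. Among the 3 rPTH libraries alone, rPTH 1 was highest for 32 of 36 members, against 41.4% of all tested genes and 45.1% of protein-coding ones. Only 6 members were highest in control 1, against 39.3% of all tested genes and 42.3% of protein-coding ones. These shares carry no test, since the members share the same libraries.

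**Figure D3:**
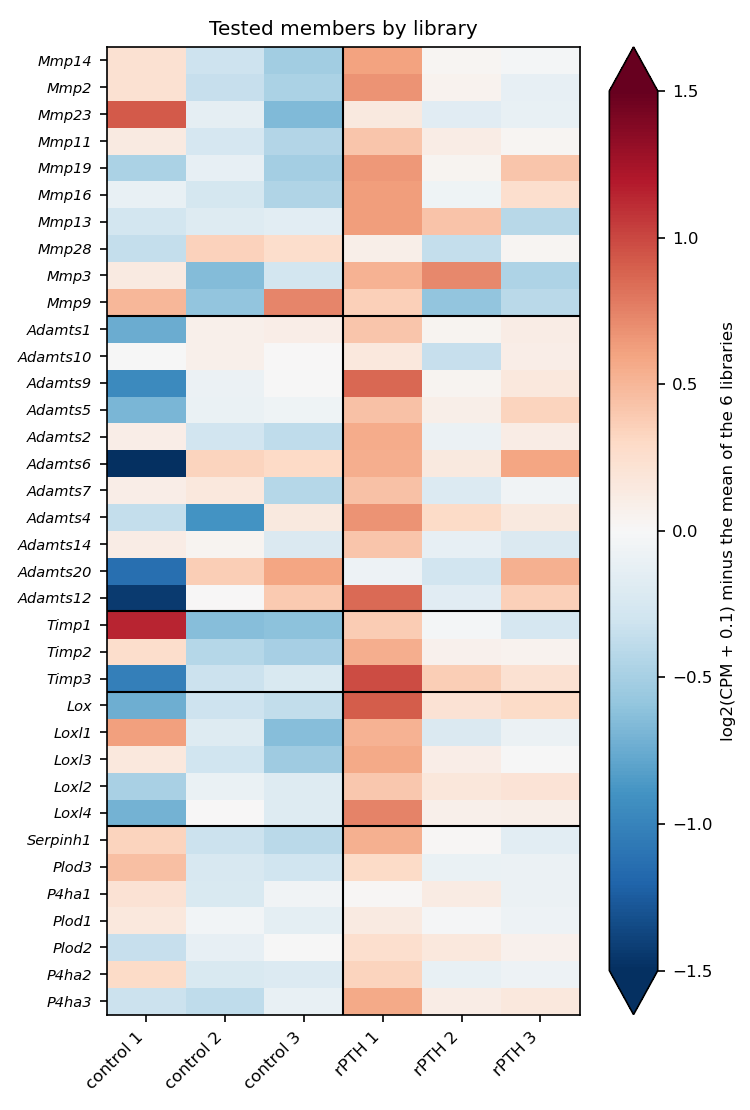
Level of each of the 36 tested members in each library, as log2(CPM + 0.1) minus its mean over the 6 libraries, red above and blue below, with black lines between families and between groups. The rPTH 1 column is red for nearly every member, while the control 1 column runs from red for Timp1 and Mmp23 to dark blue for Adamts6, Adamts12 and Adamts20.

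Control 1 split the members. Of the 21 members with a mean of at least 5 CPM, 12 were higher in control 1 than in the mean of control 2 and 3, by 0.25 to 1.77 on the log2 scale, and 9 were lower. The 12 were Timp1, Timp2, Loxl1, Loxl3, Mmp2, Mmp14, Serpinh1, Plod1, Plod3, P4ha1, P4ha2 and Adamts2. The 9 were Lox, Loxl2, Loxl4, Timp3, Plod2, Adamts1, Adamts5, Adamts9 and Adamts10. Their median exon lengths were 4316 and 5405 bases and their median GC contents 54.0% and 49.7%. All rPTH libraries lay above all controls for 0 of the 12 and for 7 of the 9, against 8.35% of all tested genes. A gene that is high in control 1 can hardly have every rPTH library above it. One that is low in control 1 has a lower control mean. The difference between the 12 and the 9 is thus largely set by the split itself, and these counts are a description. The part of length, GC content or RNA quality was not tested.

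**Figure D4:**
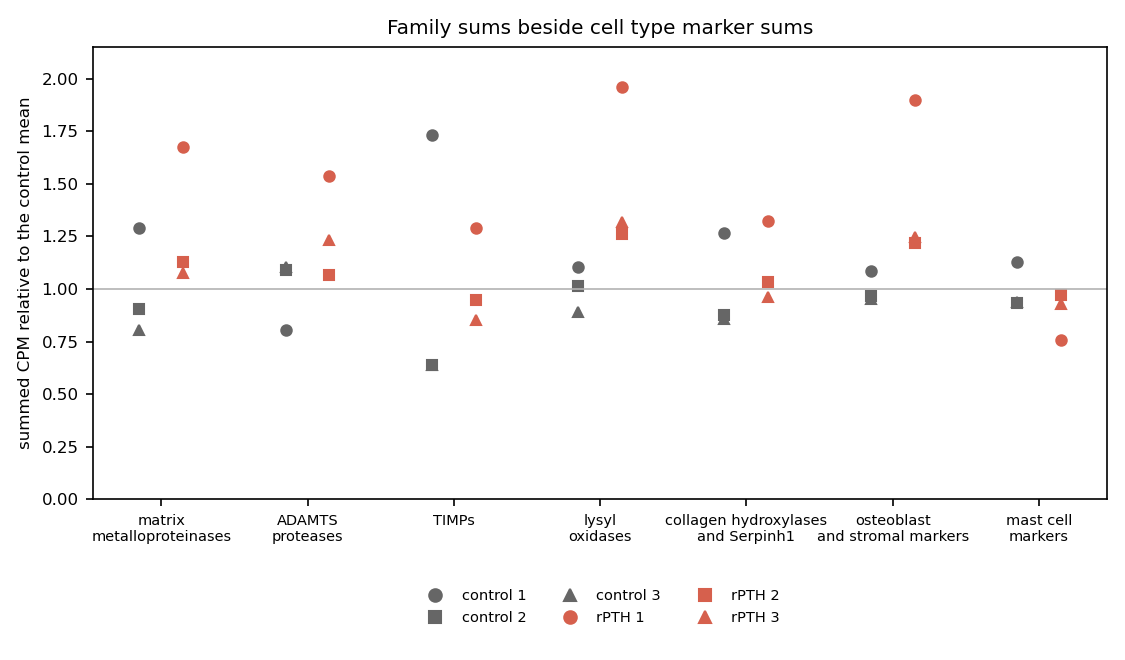
Summed CPM of each family and of the stromal and mast cell marker lists in each library, divided by the control mean of that sum (horizontal line at 1). The rPTH 1 circle is the highest rPTH point for every family and for the stromal markers and the lowest of all 6 for the mast cell markers; control 1 is the highest point for the TIMPs.

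The direction of several members rested on these 2 libraries. With all libraries 7.87% of all tested genes had an unadjusted p under 0.05 in either direction. Without rPTH 1 the members' median log2 fold change was 0.23, and 2 members, Lox and Timp3, kept such a p, against 1.61% of all tested genes. Without control 1 the median was 0.41 and 13 of 38 tested members had such a p, among them Timp1 (0.67), Timp2 (0.69), Mmp2 (0.64), Mmp14 (0.63) and Serpinh1 (0.51), while the share of all tested genes was 12.4%. With both libraries left out, an alternative added once the values were known, the members had a median of 0.24 and 10 members had such a p, against 5.01% of all tested genes, but the adjusted count in edgeR was 0. The stromal marker sum followed the same libraries: with rPTH it was 1.45 times the control mean, 1.23 times without rPTH 1 and 1.52 times without control 1. Lox and Timp3 were the 2 members with an unadjusted p under 0.05 in all 15 alternatives, with log2 fold changes of 0.59 to 1.09 and 0.58 to 1.27. These alternatives fit the same 6 libraries again, or fewer of them, and are not separate evidence. The share of all tested genes that did so was not counted. With all libraries the edgeR adjusted p was 0.619 for both.

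**Figure D5:**
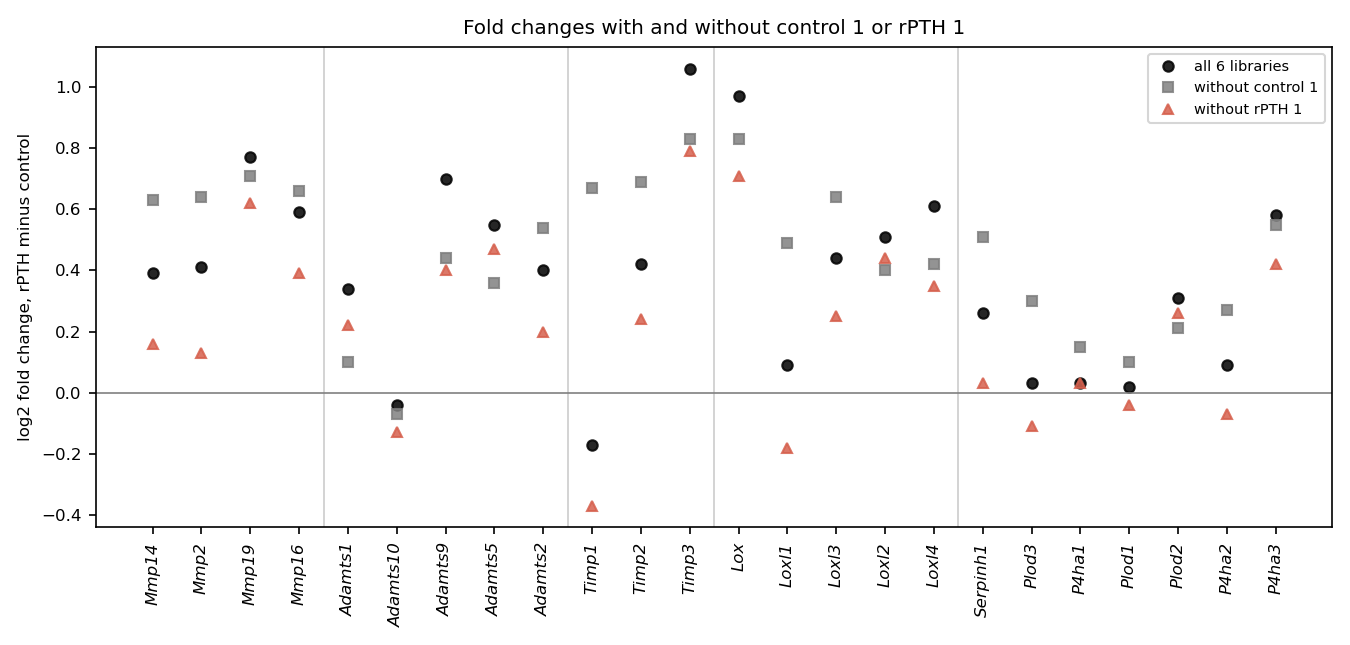
Log2 fold changes (rPTH minus control) of 24 members with all 6 libraries (black), without control 1 (grey) and without rPTH 1 (red). Timp1 moves from -0.17 to 0.67 when control 1 is left out and to -0.37 when rPTH 1 is left out, while Lox and Timp3 stay at 0.71 or above.

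The authors' deposited table gave a p-value for all 58 members and an adjusted p for 32, of which 0 were under 0.05, against 0.0707% of its genes that have an adjusted p. An unadjusted p under 0.05 was held by 10 members in the authors' deposited table, each higher with rPTH, against 1.71% of its genes on that side, and by 0 on the lower side, against 3.38%. In the authors' deposited table the smallest adjusted p were those of Lox (0.113, log2 fold change 0.92), Timp3 (0.138, 0.95) and Mmp19 (0.201, 0.73). The authors' deposited table also listed Loxl2, Adamts4, Adamts5, Adamts9, Loxl4, Mmp16 and P4ha3 among the 10.

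Other genes of matrix turnover, which the symbol rule does not cover, were read from lists of other proteases, other inhibitors and clearance receptors, and other collagen folding genes. The difference between these genes and the members was not tested. Of 76 listed genes 58 were tested, 36 had a log2 fold change above 0 and the median was 0.04; 0 passed in edgeR and 1 had an unadjusted p under 0.05. That gene was Fkbp14, a collagen prolyl isomerase, with 2.99, 3.33 and 3.29 CPM in controls and 6.86, 4.61 and 4.01 CPM with rPTH, a log2 fold change of 0.69 ± 0.28 (SE). The other 3 named on the higher side were membrane proteases Adam19 (0.60 ± 0.27) and Adam9 (0.53 ± 0.24) and the plasminogen activator Plat (0.69 ± 0.32). For all 4 the rPTH libraries lay above the controls and rPTH 1 was the highest. On the lower side the smallest p belonged to the lysosomal protease Ctsd (-0.56 ± 0.32), with 765 CPM in control 1 against 308 to 399 CPM elsewhere, and to Adam8 (-0.28 ± 0.17), Adam15 (-0.36 ± 0.24) and the collagen chaperone Ppib (-0.25 ± 0.18), whose groups overlapped.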

How the data were processed

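Trizol RNA of the collected mast cells went into Illumina TruSeq libraries, per the labels' protocols. The authors deposited a whole-number count per gene and library without normalization, a signal table of counts divided by 1 size factor per library, regularised log2 values, and a comparison table with log2 fold changes, a Wald score, and p-values with adjusted p-values. The submitters' processing notes name Trimmomatic 0.36, STAR 2.5.2b, Subread 1.5.0p3 with featureCounts, DESeq2 1.12.4 and R 3.3.0, and both GRCm38.p5 and mm9, without roles; annotation and strand setting are not given in the sources used here.

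Counts were tested over the whole table with edgeR 4.0.16 in R 4.3.3 (quasi-likelihood, robust, TMM, filterByExpr with a minimum count of 10; 16696 of 49568 genes; Benjamini-Hochberg, threshold 0.05) and, as an alternative, DESeq2 1.42.0. The edgeR step was tested on simulated counts. Gene lengths, GC content (transcripts) and positions came from GENCODE M21 by symbol (47206 symbols matched). No 2 libraries were duplicates: their chi-square per gene was 13.3 to 288. The closest pair lay across the groups, control 2 and rPTH 3 (13.3). Pairs with control 1 had 203 to 288, against 13.3 to 57.7 for the other pairs. No member with a summed count of at least 100 shared all 6 counts with another gene. Of the tested members 12 share exon bases with another annotated gene, 11 of them with one that the count table lists.

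The members and gene lists were chosen with earlier results of these data known. Per-library values are given for members of at least 5 CPM on average or with groups that do not overlap, and also for Mmp13 and Mmp3, added after their values were seen because their promoters are shown; the matrix-turnover genes named are up to 4 per direction with the smallest p and at least 1 CPM. Sums have no test. The mast cell, stromal, macrophage, endothelial and adipocyte lists were read as levels.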

Additional observations from a re-analysis of the deposited data

How the results depend on the processing

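The count of members called was 0 under all 15 alternatives; over all genes it was 0 in edgeR and 8 with DESeq2. The number of members with an unadjusted p under 0.05, 5 here, was 11 with plain library totals and 12 without the low-count filter (11 higher and 1 lower, Mmp8). It was 2 with a replicate block, 10 with DESeq2 and 9 with trends on length and GC content removed per library. With control 1 and rPTH 1 left out it was 10, and without single replicates it ran from 2 to 13. Without control 2, where Mmp15 entered the test, 4 were higher and 1 lower (Mmp15). The share of all tested genes with such a p was 7.87% here, 7.11% with library totals, 6.22% without the filter, 3.14% with the block, 5.22% with DESeq2, 4.76% with trends removed, 5.01% with both libraries left out and 1.61% to 12.4% without single replicates. Same-numbered libraries did not deviate together (correlations of -0.131, -0.323 and 0.142), so the numbers were not treated as pairs. Plain library totals moved the median of all genes from -0.09 to 0.04; the members' median minus that median was 0.48 and 0.50. This gap was 0.30 without the filter and with DESeq2, 0.33 without rPTH 1, 0.27 with both libraries left out, and 0.38 to 0.57 under the others. The members' median ran from 0.16 to 0.54; it was 0.21 without the filter and 0.16 with DESeq2, where all 58 members entered.

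Of 36 tested members some had a changed sign. Timp1 had 0.05 with library totals, 0.02 without the filter, 0.07 with a replicate block, 0.42 after trend removal and 0.48 with both libraries left out, and -0.47 to 0.67 without single replicates. Adamts10 had 0.02 with RLE, 0.08 with library totals, 0.08 without the filter and 0.04 with DESeq2, and -0.13 to 0.10 without single replicates. Adamts20 had 0.03 with library totals and with DESeq2, 0.05 without the filter and 0.06 with a replicate block, and -0.47 to 0.39 without single replicates. Trend removal gave Mmp23 0.12, P4ha1 -0.03 and Plod1 -0.06. With both libraries left out Adamts1 had -0.01, Adamts12 -0.12, Adamts14 -0.10, Adamts7 -0.02 and Mmp23 0.24. Without single replicates the ranges were -0.16 to 0.20 (Adamts14), -0.10 to 0.25 (Adamts7), -0.18 to 0.49 (Loxl1), -0.42 to 0.33 (Mmp23), -0.07 to 0.15 (P4ha1), -0.07 to 0.27 (P4ha2), -0.04 to 0.10 (Plod1) and -0.11 to 0.30 (Plod3). The summed difference was -46.1 to 118 CPM for TIMPs and -0.948 to 131 CPM for hydroxylases and Serpinh1. The cause was not tested. At this depth the 22 members with 1 to 50 counts in all could not be tested.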
